A study of Mus musculus with 11 samples.

Results

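The ventral telencephalon and interneuron genes described here are Gsx2, Dlx1, Dlx2, Dlx5, Dlx6, Nkx2-1, Lhx6, Gad1 and Gad2. They were chosen by symbol, as 9 of the 20475 genes in each of 2 deposited tables, and all 9 were found in both. Poly(A) RNA of mouse forebrain at embryonic day 12.5 was sequenced in 11 libraries to ask how loss of Kif20a, a mitotic kinesin of dividing neural progenitors, altered gene expression. The germline comparison held 3 wild-type and 3 Kif20a knockout libraries of littermates, in which a cassette with LacZ and a neomycin resistance gene interrupted the gene (the knockout-first allele, carried by mice derived from 1 embryonic stem cell clone and crossed to C57BL/6J). The inducible comparison held 2 control libraries, which the labels call wild-type controls of the conditional knockout, and 3 knockout libraries, in which CreERT2 expressed from Nestin removed a floxed part of Kif20a after the cassette had been taken out. The controls of the paper's other inducible experiments were Kif20a fl/fl littermates, named without the CreERT2 transgene. For the sequenced controls it says only wild-type, so the groups may also differ by that transgene. Tamoxifen was given to the pregnant females of the inducible litters at E9.5 and E10.5, so control and knockout embryos shared it. Nestin is a neural progenitor gene, so cells that never expressed it kept Kif20a in these knockout libraries. The labels name the tissue forebrain and the paper names it cortex. Neither says how many embryos entered a library, so p-values measure only the spread between these libraries, which may be technical. The Y-linked levels given below differed within each germline group, however, so the germline libraries of a group did not all come from the same embryos.

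The ventral telencephalon, or subpallium, lies below the cortex and is divided into a lateral and a medial ganglionic eminence. Gsx2 and the Dlx factors are homeodomain transcription factors of its progenitors and of the young neurons they produce, Nkx2-1 specifies the medial eminence, and Lhx6 acts downstream of Nkx2-1 in the interneurons that leave it for the cortex. Gad1 and Gad2 encode the 2 glutamate decarboxylases that make GABA, the transmitter of these neurons. The pallium, from which the cortex forms, does not produce these cells at this stage, and its interneurons arrive by migration. Nkx2-1 is also expressed in the hypothalamus, the lung and the thyroid. The levels below are therefore levels of a whole tissue piece, in which fewer cells of a type and less RNA per cell cannot be told apart.

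Most of the set encodes homeodomain factors that are known to regulate one another, and so the 250 bases upstream of the start of each gene were read for the core TAATT that many homeodomains bind and for CAAGTG, the core bound by NKX2-1 and its relatives, both on either strand. RefSeq promoters of GRCm38.p6 were used, and 9 promoters were found for 7 of the 9 genes, with 3 for Lhx6 and without Dlx5 and Dlx6. TAATT was in 25.0% and CAAGTG in 11.6% of all 32851 promoters. Of the 9 promoters 2 held TAATT, 1 each of Gsx2 and Lhx6, and 0 held CAAGTG. The matches are shown 5′ to 3′ along the gene with 18 bases on each side and the core in capitals, at GRCm38.p6 chr5:75075369-75075409 (plus strand, 214 bases before the start) for Gsx2, where the core reads on the opposite strand, and at chr2:36104267-36104307 (minus strand, 229 bases before the start) for Lhx6.
Gsx2: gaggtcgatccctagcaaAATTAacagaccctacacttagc
Lhx6: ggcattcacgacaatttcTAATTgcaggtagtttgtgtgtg
These letters describe the windows alone, and the enhancers between and around the Dlx genes lie outside them.

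Values are normalized counts, that is, reads per gene after the authors had equalized the libraries of a table, and levels are compared only within a table. A gene was called different when the fold change was at least 1.5 and the unadjusted P of limma, a linear model fitted across all tested genes on log2(normalized count + 1), was at most 0.05. By these rules Kif20a was lower in both knockouts. Germline wild-type libraries held 2295 to 2680 and knockouts 374 to 503 (log2 fold change -2.54 ± 0.15 SE, limma adjusted p = 0.00845). Inducible controls held 4760 to 4844 and knockouts 2853 to 3125 (log2 fold change -0.70 ± 0.06 SE, limma adjusted p = 0.0107). The libraries therefore fit their labels for the targeted gene.

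Before the values of the 9 genes are given, 3 facts on the libraries bear on them. Germline knockout library 2 stood apart from the rest, at 91.2 on the first principal component (58.0% of the variance) against -38.4 to 3.84 for the other 5. Its summed level of 13 pallial genes was 53343 against 13525 to 29270 in the other germline libraries, that of 12 neuronal genes was 95724 against 27393 to 55204, and that of 12 cranial mesenchyme genes was 693 against 5037 to 22334. Germline knockout library 1 had the highest summed level of 18 diencephalic and hypothalamic genes, 5979 against 1287 to 3024. In the inducible table the summed level of 4 Y-linked genes was 1.96 and 4.24 in the wild-type and 2389 to 3209 in the knockout libraries, so that sex and genotype cannot be told apart there. Germline libraries of both genotypes were mixed in this sum (1714, 9.83 and 4582 for the wild-type, 4.49, 0 and 1376 for the knockout).

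No gene of the set was called different in either comparison. In the germline comparison 0 of 9 were called and 0 of 9 reached a P of at most 0.05, where 2.74% of the 13938 tested genes were called, 5.39% reached that P and 0.00717% passed an adjusted p of 0.05. In the inducible comparison the counts were again 0 of 9 and 0 of 9, where 1.29% of the 14081 tested genes were called, 6.01% reached that P and 0.0355% passed an adjusted p of 0.05. All 9 passed the filter of a mean of at least 10 normalized counts in both tables. The wild-type and knockout libraries overlapped for every one of the 9 in both comparisons, whereas they did not overlap for 13.5% of the tested genes in the germline and for 22.6% in the inducible table. The median log2 fold change of the 9 genes was 0.01 for the germline libraries, beside -0.04 over all tested genes, and 0.17 for the inducible libraries, beside -0.00191 over all tested genes. A difference could have been missed, since the standard errors of the 9 genes ran from 0.15 to 0.55 (germline) and from 0.14 to 1.23 (inducible), with a median of 0.22 and 0.09 over all tested genes.

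**Figure D1:**
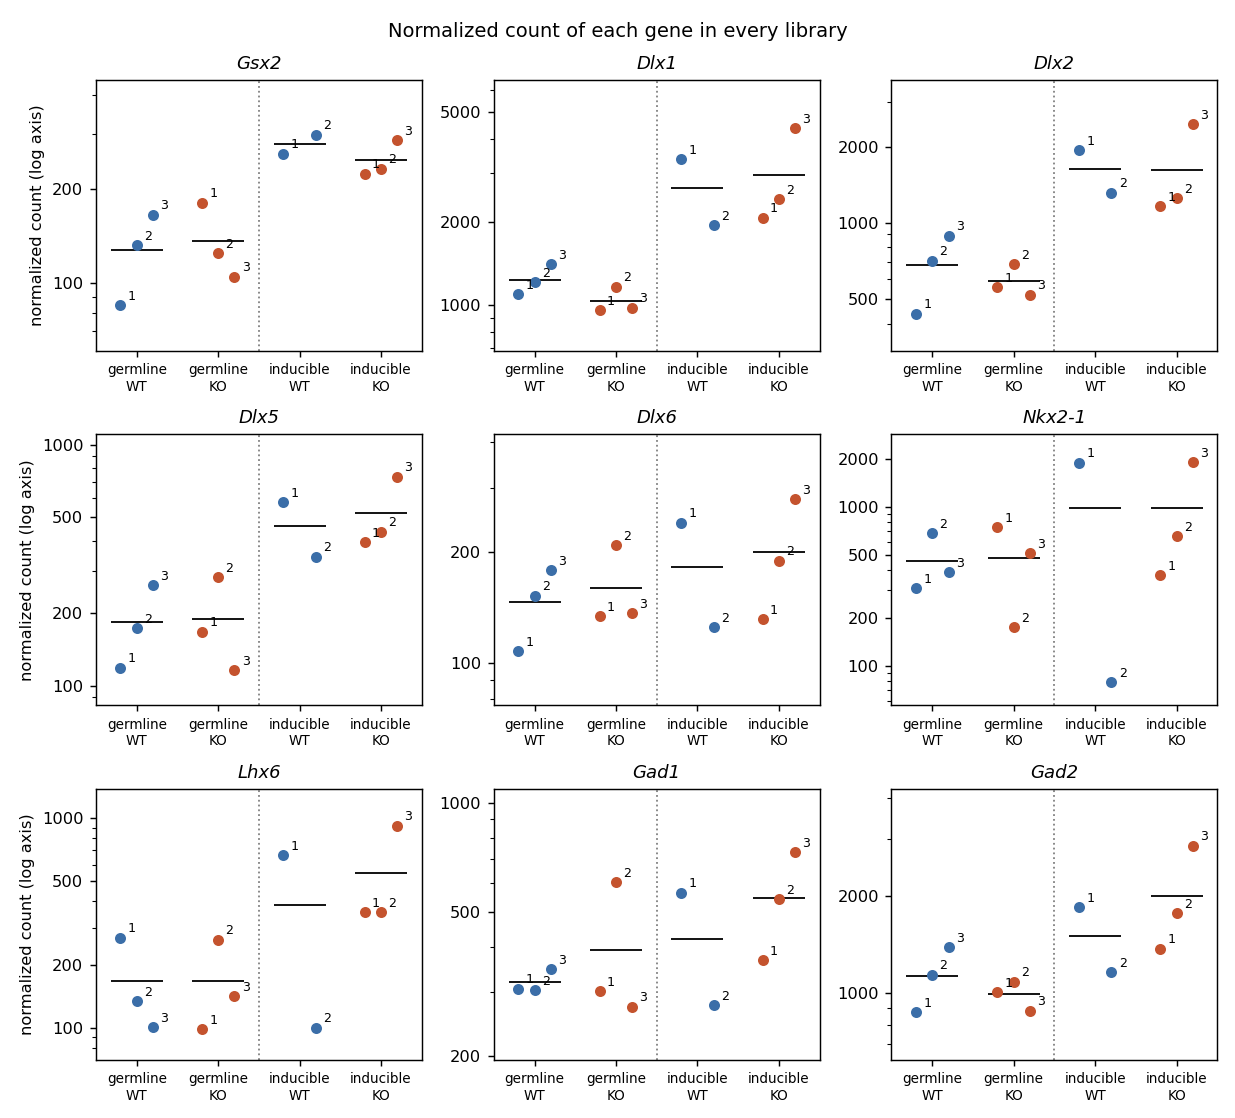
Normalized count (log axis) of each gene in every library, with wild-type libraries in blue, knockout libraries in orange, the replicate number beside each point and a bar at the group mean. The dotted line separates the germline from the inducible table, which were normalized apart. The groups overlap in every panel, and Nkx2-1 spans 24.2-fold in the inducible table.

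Gsx2, which patterns progenitors of the lateral eminence, lies on chromosome 5 (mm9 chr5:75471489-75473918, plus strand). Its germline levels were 84.6, 132 and 165 in wild-type libraries 1 to 3 and 180, 124 and 104.5 in knockout libraries 1 to 3. The log2 fold change was 0.11 ± 0.33 SE (95% confidence interval -0.66 to 0.89, limma adjusted p = 0.936), and the highest library was a knockout and the lowest a wild-type. Its inducible levels were 259 and 298 (wild-type) and 223, 232 and 286 (knockout). The log2 fold change was -0.18 ± 0.14 SE (interval -0.51 to 0.15, limma adjusted p = 0.884). Gsx2 varied least of the set in the inducible table, by 1.33-fold from the lowest to the highest library, and wild-type library 2, which was lowest for 7 of the 9 genes, was its highest.

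Dlx1 and Dlx2 lie tail to tail on chromosome 2 (mm9 chr2:71366170-71372038, plus strand, and chr2:71381466-71384811, minus strand), 9427 bases apart. The DLX proteins bind DNA through a homeodomain, and the pair acts early in the subpallial lineage. Dlx1 was at 1093, 1210 and 1405 (germline wild-type) and at 955, 1164 and 979 (germline knockout). The log2 fold change of -0.26 ± 0.15 SE (interval -0.61 to 0.09) had the smallest P of the set in this comparison, 0.128, with an adjusted p of 0.779 by limma. Knockout libraries 1 and 3 were below every wild-type library, while knockout library 2 was above wild-type library 1. An antisense RNA, Dlx1as, covers 335 of the exon bases of Dlx1 (6.21%), has no row in the tables, and could not be told from Dlx1 if reads were counted without strand, which the sources used here do not give.

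Dlx2 was at 437, 709 and 889 (germline wild-type) and at 556, 686 and 520 (germline knockout), a log2 fold change of -0.16 ± 0.27 SE (limma adjusted p = 0.889). All 3 knockout libraries lay inside the wild-type range. Among the inducible libraries Dlx1 was at 3381 and 1943 (wild-type) and at 2069, 2422 and 4364 (knockout), a log2 fold change of 0.13 ± 0.33 SE (limma adjusted p = 0.965). Dlx2 was at 1939 and 1317 (wild-type) and at 1163, 1248 and 2448 (knockout), a log2 fold change of -0.07 ± 0.32 SE (limma adjusted p = 0.983). For both genes knockout library 3 was highest and wild-type library 1 next.

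Dlx5 and Dlx6 form the other convergent pair, on chromosome 6 (mm9 chr6:6827805-6832085, minus strand, and chr6:6813334-6818568, plus strand), 9236 bases apart. They follow Dlx1 and Dlx2 as cells leave the ventricular zone. In the germline table Dlx5 was at 119, 174 and 261 (wild-type) and at 168, 282 and 117 (knockout), a log2 fold change of 0.01 ± 0.40 SE (limma adjusted p = 0.997). Dlx6 was at 108, 153 and 179 (wild-type) and at 134, 209 and 137 (knockout), a log2 fold change of 0.13 ± 0.28 SE (limma adjusted p = 0.917). Knockout library 2 was the highest for both and wild-type library 3 the next. Among the inducible libraries Dlx5 was at 579 and 344 (wild-type) and at 393, 435 and 736 (knockout), a log2 fold change of 0.17 ± 0.30 SE (limma adjusted p = 0.945), and Dlx6 at 241 and 125 (wild-type) and at 132, 190 and 279 (knockout), a log2 fold change of 0.14 ± 0.36 SE (limma adjusted p = 0.965). Both again had their highest values in knockout library 3 and wild-type library 1 and their lowest in wild-type library 2.

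Nkx2-1 lies on chromosome 12 (mm9 chr12:57632922-57637895, minus strand) and had the widest spread of the set in both tables. In the germline table it was at 307, 682 and 387 (wild-type) and at 745, 175 and 509 (knockout). The log2 fold change was -0.09 ± 0.55 SE (interval -1.39 to 1.2, limma adjusted p = 0.973), and the knockout group held both the highest and the lowest library. Its inducible levels lay at 1902 and 79.0 (wild-type) and at 372, 653 and 1911 (knockout). The 2 wild-type libraries thus differed by 24.1-fold, and wild-type library 1 and knockout library 3 were nearly equal. The log2 fold change was 0.99 ± 1.23 SE (interval -1.90 to 3.89, limma adjusted p = 0.921).

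Lhx6, a LIM homeodomain factor, lies on chromosome 2 (mm9 chr2:35937470-35960928, minus strand). Its germline levels were 268, 134 and 101 (wild-type) and 98.5, 263 and 142 (knockout), a log2 fold change of 0.01 ± 0.47 SE (limma adjusted p = 0.998). Wild-type library 1 and knockout library 2 stood above the other 4. Its inducible levels were 666 and 99.9 (wild-type) and 355, 356 and 920 (knockout), a log2 fold change of 0.92 ± 0.76 SE (interval -0.86 to 2.69, limma adjusted p = 0.884). Wild-type library 1 was above knockout libraries 1 and 2, and wild-type library 2 was below all the others.

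Gad1 and Gad2 lie on chromosome 2 (mm9 chr2:70391129-70440071 and chr2:22477725-22549394, both plus strand). Gad1 was at 307, 304 and 347 (germline wild-type) and at 302, 604 and 273 (germline knockout), a log2 fold change of 0.21 ± 0.30 SE (limma adjusted p = 0.873). Only knockout library 2 lay above the wild-type range, and the other knockout libraries lay below it. Gad2 was at 874, 1140 and 1387 (wild-type) and at 1008, 1087 and 885 (knockout), a log2 fold change of -0.17 ± 0.19 SE (limma adjusted p = 0.848), all 3 knockout values being inside the wild-type range. Gad1 in the inducible table was at 564 and 276 (wild-type) and at 368, 541 and 729 (knockout), a log2 fold change of 0.41 ± 0.35 SE (limma adjusted p = 0.888), and Gad2 at 1841 and 1163 (wild-type) and at 1373, 1767 and 2851 (knockout), a log2 fold change of 0.38 ± 0.30 SE (limma adjusted p = 0.884). Knockout library 3 was the highest and wild-type library 2 the lowest for both enzymes.

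**Figure D2:**
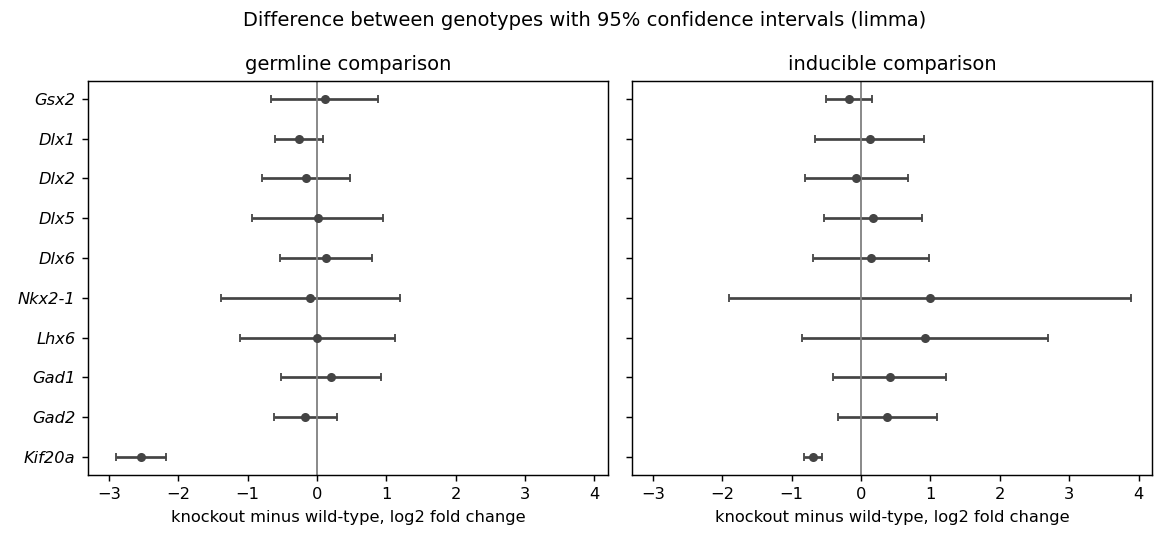
Log2 fold change of knockout over wild-type with its 95% confidence interval (limma) for the 9 genes and Kif20a, with the germline comparison on the left and the inducible comparison on the right. Every interval of the 9 genes spans 0, from -1.90 to 3.89 for Nkx2-1 in the inducible comparison, and both intervals of Kif20a lie below 0.

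Exact permutation tests on the log2 values, two-sided over the 20 splits of the germline and the 10 splits of the inducible libraries, gave the 9 genes a p of 0.2 to 1.0 and of 0.3 to 0.9, respectively. Neither design can give a p below 0.1, which was the value for Kif20a in both.

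In the inducible comparison the levels of the 9 genes differed by library more than by genotype. Knockout library 3 was highest for 8 of the 9 and wild-type library 1 second for 8 of the 9, while wild-type library 2 was lowest for 7. The full order, from knockout library 3 through wild-type library 1, knockout library 2 and knockout library 1 to wild-type library 2, was the same for 7 of the 9 genes, namely Dlx1, Dlx5, Dlx6, Nkx2-1, Lhx6, Gad1 and Gad2. It was found for 3.03% of all tested genes. The members were chosen as genes of one tissue territory and are not independent of each other, so this count is a description. Relative to the wild-type mean on the log2 scale, the median of the 9 genes was 0.40 in wild-type library 1, -0.40 in wild-type library 2, and -0.18, 0.13 and 0.77 in knockout libraries 1 to 3. Between the 2 wild-type libraries 7 of the 9 genes differed by at least 1.5-fold, where 5.97% of all tested genes did. Within the knockout group 8 of the 9 spanned at least 1.5-fold, where 11.2% of all tested genes did. The same counts among germline libraries were 7 of 9 for the wild-type, where 23.7% of all tested genes spanned 1.5-fold, and 6 of 9 for the knockout, where 49.9% did.

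The spread within groups placed the set among the most variable genes of the inducible table. By residual SD of log2 values, 8 of the 9 were above the 95th percentile of all tested genes, Nkx2-1 ranking 7th and Lhx6 ranking 34th from the top of 14081. Gsx2, at percentile 73.7, was the exception. Among germline libraries 0 of the 9 were above the 95th percentile, and their percentiles ran from 23.3 for Dlx1 to 91.4 for Nkx2-1. The median residual SD over all genes was 0.27 in the germline and 0.10 in the inducible table, so that the germline libraries as a whole were less alike.

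**Figure D3:**
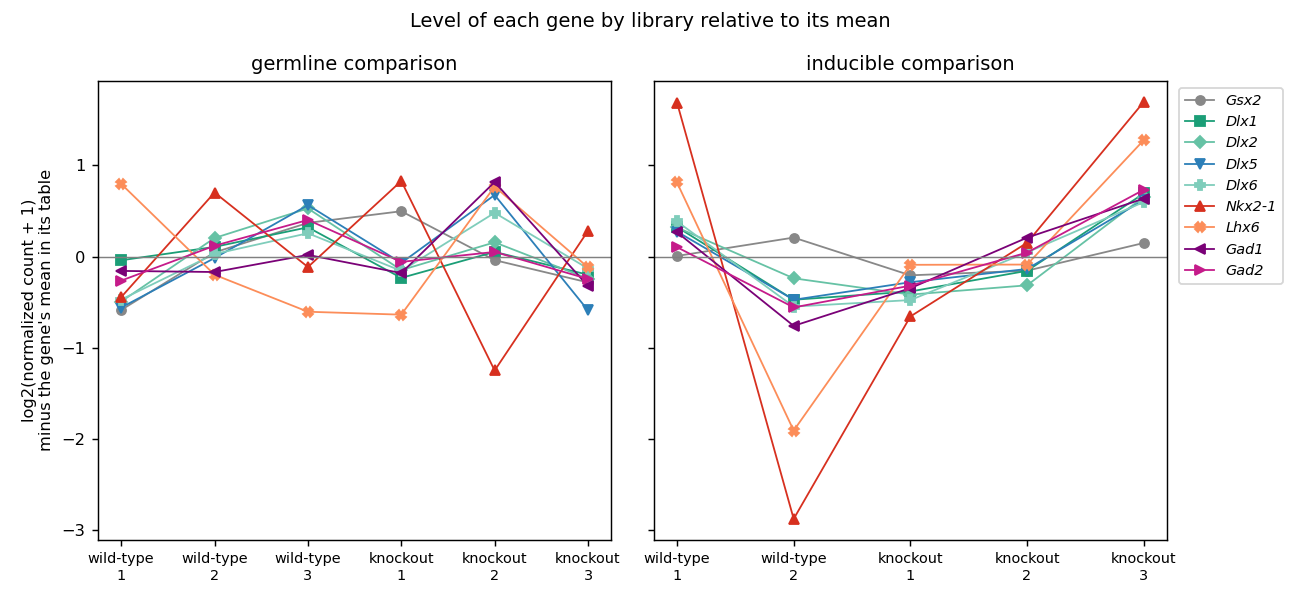
Log2(normalized count + 1) of each gene in each library minus the gene's mean over its table, with germline libraries on the left and inducible libraries on the right. Lines only join the points of a gene, since libraries have no order. In the inducible table most genes are high in wild-type library 1 and knockout library 3 and low in wild-type library 2, and Gsx2 stays close to 0.

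With so few libraries the inducible fold changes turned on single libraries. Without wild-type library 1, which leaves 1 wild-type library that is assumed to vary like the knockouts, 3 of the 9 genes were called higher in the knockout, where 2.29% of all tested genes were called. Nkx2-1 then had a log2 fold change of 3.28 ± 0.78 SE, Lhx6 of 2.28 ± 0.52 SE and Gad1 of 0.93 ± 0.33 SE. Their limma adjusted p was 0.706, 0.671 and 0.776, and over the 5 libraries left out in turn it ran from 0.671 to 0.998 for these 3 genes. Without wild-type library 2 the same genes had log2 fold changes of -1.29 ± 0.78 SE, -0.45 ± 0.52 SE and -0.10 ± 0.33 SE, and none of the 9 was called, where 0.895% of all tested genes were. Without knockout library 3 the value for Nkx2-1 was 0.34 ± 1.25 SE and that for Lhx6 0.46 ± 0.74 SE.

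**Figure D4:**
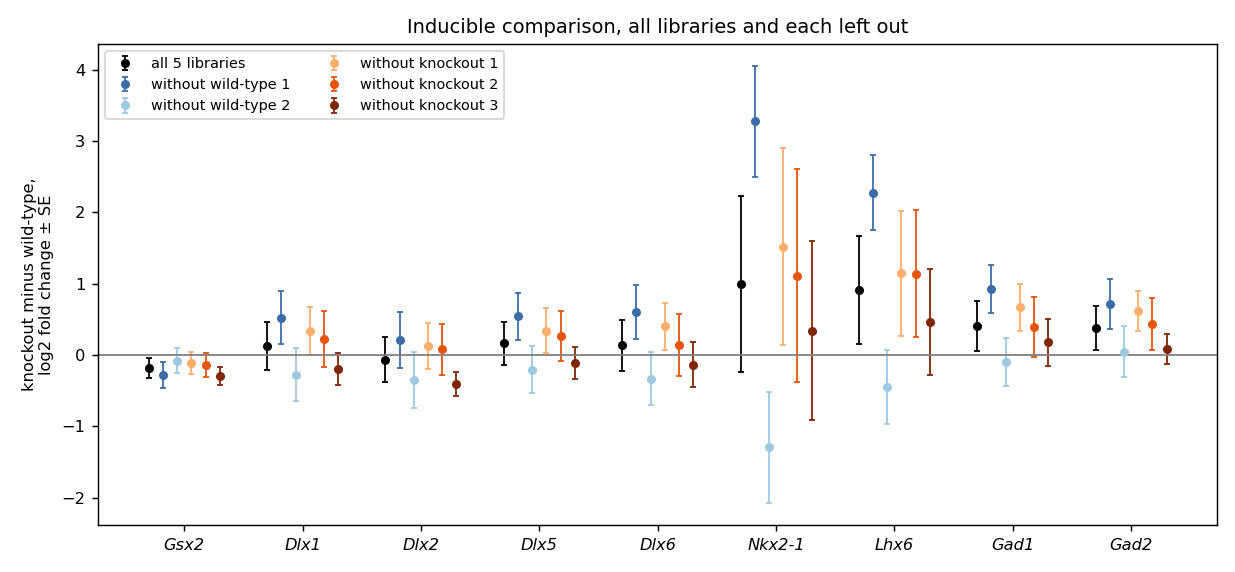
Log2 fold change of knockout over wild-type in the inducible comparison (points, with SE as bars) for all 5 libraries and after dropping each library. The estimate for Nkx2-1 runs from -1.29 without wild-type library 2 to 3.28 without wild-type library 1, while that for Gsx2 stays between -0.29 and -0.08.

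In the germline table the commonest order was that of 2 of the 9 genes, Dlx2 and Gad2, and it was found for 0.115% of all tested genes. Wild-type library 3 was among the highest 2 for 7 of the 9 genes and was the highest for Dlx1, Dlx2 and Gad2. Wild-type library 1 was the lowest for 4 and knockout library 3 for 2. Knockout library 2, the library that stood apart, was the highest for Dlx5, Dlx6 and Gad1 and the lowest for Nkx2-1. Without it the median log2 fold change of the 9 genes was -0.24 in place of 0.01, and again 0 of the 9 were called, where 8.77% of all tested genes were. Without wild-type library 1 the median was -0.27 and the count again 0, where 1.13% of all tested genes were called.

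Nkx2-1 and Lhx6, which act in sequence in the medial eminence, ran side by side in the inducible table and apart in the germline table. In the inducible libraries both were lowest in wild-type library 2 and highest in knockout library 3. In the germline libraries Nkx2-1 was lowest in knockout library 2 and wild-type library 1, where Lhx6 was highest, and Nkx2-1 was highest in knockout library 1, where Lhx6 was lowest. The count of Lhx6 over that of Nkx2-1 within a library, which no scaling of a library can change, was 0.873, 0.196 and 0.261 (germline wild-type) and 0.132, 1.5 and 0.278 (germline knockout). This ratio thus varied by 11.3-fold over the 6 libraries. In the inducible libraries it was 0.350 and 1.26 (wild-type) and 0.954, 0.545 and 0.481 (knockout), a 3.61-fold range. The ratio was highest where Nkx2-1 was lowest in both tables. Nkx2-1 is its denominator and ranged more widely than Lhx6 in both, so this follows largely from how the ratio is formed.

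**Figure D5:**
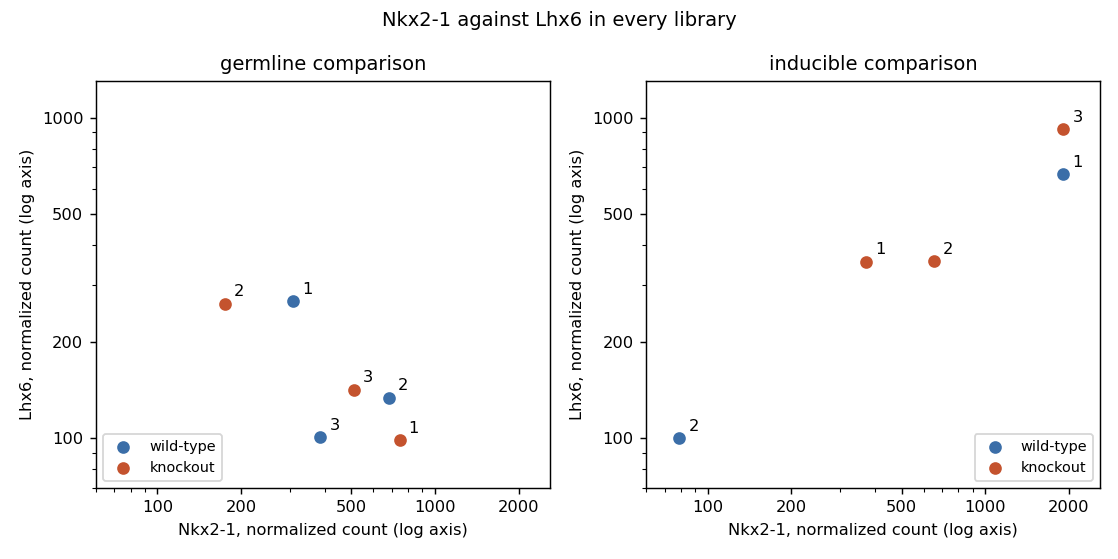
Normalized count of Lhx6 against that of Nkx2-1 (both axes log), 1 point per library with its replicate number, wild-type in blue and knockout in orange. The germline libraries run from high Lhx6 and low Nkx2-1 (knockout library 2) to the opposite (knockout library 1), and the inducible libraries run from low to high in both genes.

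The ratios within the pairs with a common locus or function had a narrower range than Lhx6 over Nkx2-1, whose 2 genes varied most. Dlx1 over Dlx2 in counts ranged from 1.58 to 2.5 in the germline and from 1.48 to 1.94 in the inducible libraries. Dlx5 over Dlx6 ranged from 0.853 to 1.46 and from 2.29 to 2.98. Gad2 over Gad1 ranged from 1.80, in germline knockout library 2, to 4.0 in the germline table and from 3.26 to 4.22 in the inducible table. In the germline table a ratio did not always vary less than its genes. Gad2 over Gad1 spanned 2.22-fold there, beside 2.21-fold for Gad1 and 1.59-fold for Gad2. Dlx1 over Dlx2 spanned 1.58-fold, beside 1.47-fold for Dlx1 and 2.03-fold for Dlx2. These are ratios of counts, not divided by gene length.

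Per kilobase of exon, the mean over the wild-type libraries was highest for Dlx2 and lowest for Gad1, Lhx6 and Dlx6 in both tables. Single libraries departed from this order. In germline wild-type library 1 Dlx1 (202) was above Dlx2 (153), and Lhx6 (56.6) was above Gsx2 (46.9). In inducible wild-type library 2 Nkx2-1 (27.9) was below Gad1 (36.1). The lengths are those of all GENCODE M1 exons of a gene, while reads were counted over RefSeq exons. How far this difference shifts the order was not tested. In the germline wild-type libraries Dlx2 was highest at 238 ± 79.7 normalized counts per kilobase (SD, n = 3), followed by Dlx1 at 229 ± 29.2, Gad2 at 193 ± 43.7, Nkx2-1 at 162 ± 69.8 and Dlx5 at 130 ± 50.2. Gsx2 at 70.5 ± 22.4, Dlx6 at 61.7 ± 15.2, Gad1 at 41.8 ± 3.12 and Lhx6 at 35.4 ± 18.7 completed the order. Of the neighbours in this order, Dlx5 and Gsx2, and Dlx6 and Gad1, differed by more than the larger of their SDs, and the other neighbours did not. In the inducible wild-type libraries Dlx2 was again highest at 570 ± 154 (SD, n = 2) and Gad1 lowest at 55.0 ± 26.6, with Dlx1 at 493 ± 188, Dlx5 at 324 ± 117, Lhx6 at 80.8 ± 84.4 and Dlx6 at 77.1 ± 34.3 between them. There Gad2 at 256 ± 81.5 and Gsx2 at 155 ± 15.3 were the only neighbours apart by more than the larger SD, and Nkx2-1 at 350 ± 455 could not be placed.

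The other genes of the subpallial and GABAergic programme were read from lists of 10 ventral progenitor factors, 16 medial eminence and interneuron genes, 12 lateral eminence and striatal genes and 4 genes of GABA transport and breakdown. Of these 42 genes 40 had a row, and the filter left 38 of them (germline) and 39 (inducible). None was called in either comparison, against the 2.74% and 1.29% of all tested genes given above, and none passed an adjusted p of 0.05 by limma. Their median log2 fold change was 0.03 (germline) and 0.05 (inducible), with 22 of 38 and 22 of 39 above 0. In the germline comparison 1 of 38 reached a P of at most 0.05, namely Foxp1, a forkhead factor of striatal neurons. Foxp1 was at 814, 995 and 1154 (wild-type) and at 1594, 1721 and 1129 (knockout), a log2 fold change of 0.58 ± 0.21 SE (limma adjusted p = 0.779). Knockout library 3 was below wild-type library 3, so the groups overlapped. In the inducible comparison 5 of 39 reached that P, all with a limma adjusted p of 0.825 and a fold under 1.5. These were Sp8 (log2 fold change -0.33 ± 0.12 SE), Maf (-0.28 ± 0.11 SE), Zeb2 (0.22 ± 0.07 SE), Foxp2 (0.24 ± 0.10 SE) and Rarb (0.38 ± 0.14 SE). Foxp1 and these 5 were named after their values had been seen. Without germline knockout library 2, 4 of the 38 were called lower and 2 higher, where 8.77% of all tested genes were called. Without germline knockout library 3, 4 were called higher (of all tested genes 7.33% were called), and without germline wild-type library 3, 3 were called (2.54%). Without inducible wild-type library 1, 3 of the 39 were called higher, where 2.29% were.

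The inducible order of libraries was shared by some of these genes. Of the 39 tested, 6 followed it exactly, namely Erbb4, Prox1, Sp9, Slc32a1, Abat and Isl1, beside the 3.03% of all tested genes. Between the 2 wild-type libraries 8 of the 39 differed by at least 1.5-fold, beside 7 of the 9 and 5.97% of all tested genes. Within the knockout group 16 of the 39 did, beside 8 of the 9 and 11.2%. The summed level varied by 1.08-fold for the medial eminence and interneuron list and by 1.13-fold for the lateral eminence and striatal list. It varied by 1.48-fold for the ventral progenitor list and by 1.82-fold for the GABA list. Slc32a1, the vesicular GABA transporter, was at 368 and 248 (wild-type) and at 272, 324 and 541 (knockout). Lhx8, a LIM homeodomain factor of medial eminence neurons singled out after its values were seen, was at 530 and 27.3 (wild-type) and at 211, 180 and 562 (knockout), a 20.6-fold range. Gsx1, the close relative of Gsx2 and also singled out by its values, was at 122 and 14.7 (wild-type) and at 23.0, 81.5 and 113 (knockout). Both were thus high in wild-type library 1 and knockout library 3 and lowest in wild-type library 2, as Nkx2-1 was, while Gsx2 was not.

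Not every interneuron gene shared that order. Sst, the somatostatin gene, was at 73.9 and 73.5 (inducible wild-type) and at 52.3, 91.7 and 99.4 (knockout). Cxcr4, a chemokine receptor of migrating interneurons, varied by 1.2-fold over the 5 libraries. In the germline table Sst was at 161, 118 and 17.4 (wild-type) and at 10.2, 279 and 15.1 (knockout), a 27.5-fold range whose 2 highest libraries, knockout library 2 and wild-type library 1, were also those of Lhx6.

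Marker levels of neighbouring tissues moved with some of these differences, and their part in them was not tested. The summed inducible level of the 12 neuronal genes was 79804 and 64995 (wild-type) and 68356, 73275 and 86011 (knockout), in the same order of libraries as that of the 7 genes above. The endothelial sum had that order too, at 5331 and 3873 (wild-type) and 4134, 4665 and 5878 (knockout), a 1.52-fold range beside 1.32-fold for the neuronal sum. That of cranial mesenchyme was 20046 and 12508 (wild-type) and 14770, 17211 and 17562 (knockout), highest in wild-type library 1 and lowest in wild-type library 2. The sum of the 13 pallial genes was 42761 and 47275 (wild-type) and 48935, 42043 and 39008 (knockout), and was lowest in knockout library 3. Hypothalamic factors also differed between libraries. Otp was at 246 and 8.70 (wild-type) and at 10.2, 113 and 230 (knockout), and Sim1 at 253 and 23.7 (wild-type) and at 27.6, 160 and 273 (knockout). Both were high where Nkx2-1 was highest, but other genes of the list were not. Six6 was at 3.90 and 19.99 (wild-type) and at 9.61, 24.2 and 24.3 (knockout), and Rax at 7.85 and 17.96 (wild-type) and at 8.61, 13.6 and 42.9 (knockout), so that both were lowest in wild-type library 1. At low levels, Nkx2-2, Hmx2 and Hmx3 were higher in wild-type library 1 and knockout library 3 than in wild-type library 2. Wnt3 and Foxb1 were instead highest in knockout libraries 1 and 2. The summed level of all 18 diencephalic and hypothalamic genes ranged from 3430 to 4483, and 5 of the 18 were at 0 in at least 1 library. Most of that sum came from Lhx9, Tcf7l2, Fezf1 and Barhl2, so it says little about the lower genes such as Otp and Sim1.

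In the germline table Nkx2-1 was highest in knockout library 1, which also held the highest sum of the 18 diencephalic and hypothalamic genes, 5979, of which Tcf7l2 made up 3212 (against 283 to 638 in the other 5 libraries). Nkx2-2, a ventral factor of the diencephalon, was at 2.83, 47.4 and 3.33 (wild-type) and at 164, 3.37 and 92.4 (knockout), high in the 3 libraries where Nkx2-1 was highest. Other genes of this list were low in knockout library 1, with Otp at 2.82, 147 and 72.2 (wild-type) and at 26.8, 8.78 and 147 (knockout), and Six6 at 1.48, 102 and 7.35 (wild-type) and at 5.24, 0 and 49.2 (knockout). The lung and thyroid, where Nkx2-1 is also expressed, were represented by 8 genes whose sum was 4.41 to 65.8 in the germline and 40.3 to 231 in the inducible libraries. Foxe1, a defining thyroid factor, was at 0 in all 11 libraries. Other genes of this list were not absent. Tg was above 0 in every library, at up to 5.94. Pax8 was at 0 to 16.6 in the germline libraries. In the inducible libraries it was at 12.7 and 34.8 (wild-type) and at 10.7, 6.25 and 22.0 (knockout). Scgb1a1, a lung secretory gene, was at 0 in the 6 germline libraries, but at 3.89 and 24.2 (inducible wild-type) and at 15.1, 142 and 88.0 (knockout), where it was called higher (log2 fold change 2.41 ± 1.00 SE, limma adjusted p = 0.825). Its highest libraries, knockouts 2 and 3, were not those of Nkx2-1, which was highest in knockout library 3 and wild-type library 1.

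The genes outside all lists whose pattern was most like that of the 9 were found by Pearson's r with the mean standardized profile of the set over 11 libraries, each gene centred within its table, among 13741 genes tested in both. The first 10 included Grik3 (r = 0.95), a kainate receptor subunit, Nwd2 (r = 0.94), Fgd3 (r = 0.94), Kcnh8 (r = 0.92), a potassium channel, Tmem169 (r = 0.90), Tub (r = 0.90), Gprasp2 (r = 0.88), Nrsn2 (r = 0.88) and Dusp26 (r = 0.87), and 1 row whose symbol had been turned into a calendar date. Spearman's rho for the 10 lay between 0.85 and 0.94. The members themselves, which form the profile, had r from 0.36 for Gsx2 to 0.95 for Gad2 and Dlx6, with 0.63 for Lhx6 and 0.68 for Nkx2-1. Grik3 was at 454, 541 and 695 (germline wild-type) and at 473, 786 and 408 (germline knockout), and at 1551 and 888 (inducible wild-type) and at 977, 1051 and 2400 (inducible knockout). None of the 10 was called in either comparison. That follows largely from their choice, since they were picked for likeness to genes that were not called. The points share libraries and their normalization, and r is given only as a measure of likeness.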

How the data were processed

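Poly(A) RNA was measured in 11 libraries, and every library was grouped by its label. Reads were mapped to mm9 by the authors using TopHat (1.2.0 in the submitters' notes, another version in the methods), summed over the RefSeq exons of a gene, and normalized by edgeR's TMM. Each deposited signal is a normalized count of a gene, scaled within each table by the authors and not divided by length. Of values above 0 and under 20, the share within 0.05 steps of a whole multiple of the best single step was above 95% in 2 of 11 libraries and 19.9% to 88.1% in the others, so no count model was fitted and depth is not given. Table totals were 13048716 to 15551274 for the germline and 24118520 to 24497307 for the inducible libraries, and no per-sample column was left unused.

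Each table was analysed alone as log2(value + 1) in R 4.3.3 with limma 3.58.1 (lmFit and eBayes with a trend, two-sided), for genes with a mean of at least 10. The fold threshold of 1.5 and P threshold of 0.05 are the paper's, and Benjamini-Hochberg adjustment over all tested genes was added with a threshold of 0.05. The log2(value + 1) scale understates changes of low genes. On simulated data 85% of genes changed by 1 on the log2 scale were recovered in the germline design (13998 genes) and 97% in the inducible design (14075 genes). The changes were placed only in genes with means well above the filter of 10, so these shares do not cover lower genes. Neither share was computed for the ventral telencephalon and interneuron genes described here. Of these, 8 were above the 95th percentile of residual SD in the inducible table, so the 97% cannot be carried over to them. Gene positions and exon lengths came from GENCODE M1 (mm9). Figures were drawn with matplotlib 3.10.9. The alternatives were the pseudocount, the filter, quantile normalization, array weights, no trend, a replicate block, length-scaled values, a Y-linked covariate and each library left out.

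The members, the 13 other lists and the tests were chosen with earlier results of these data known. Named genes are the 9 members, Kif20a, any called gene of the 4 ventral lists (none was) and the 10 genes outside all lists most like the members, and the other genes named were chosen after their values were seen. Results for some genes are not reported here.

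Of the marker lists, 0 pallial, neuronal, mesenchymal, endothelial, erythroid or microglial genes were called in either comparison. Of the diencephalic and hypothalamic list, 1 (Wnt3, higher) was called in the inducible comparison, and of the lung and thyroid list 1 (Scgb1a1, higher). All 4 Y-linked genes were called higher in the inducible knockout and 0 in the germline knockout.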

Additional observations from a re-analysis of the deposited data

How the results depend on the processing

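The median log2 fold change of the 9 genes moved by less than the spread between libraries under all 15 germline and all 13 inducible alternatives, ranging from -0.27 to 0.07 and from -0.27 to 0.61, and so did that of the other ventral genes, from -0.05 to 0.10 and from -0.05 to 0.17. For the 9 genes that spread was an SD of 0.31 (germline) and 0.55 (inducible), larger than the medians of 0.01 and 0.17. The sign of the median reversed within it in both comparisons, so this rule does not show that the medians are stable. The sign of a single gene's fold change differed from that given above in 24 of 135 germline and 15 of 117 inducible values. The number of the 9 genes called stayed at 0 in the germline comparison and ranged from 0 to 3 in the inducible comparison with 1 library left out, the 3 arising without wild-type library 1. Of the other ventral genes, 4 of 38 were called in the germline comparison with array weights (Meis2, Nxph1, Slc6a11 and Rarb; of all tested genes, 7.49% were), 1 without the mean-variance trend (Npas1; 3.19%) and 0 to 6 with 1 library left out, the 6 arising without knockout library 2 (Meis2, Gsx1, Sst, Nxph1, Slc6a11 and Rarb), with 4 without knockout library 3 (Erbb4, Sp9, Foxp2 and Foxp1) and 3 without wild-type library 3. In the inducible comparison 1 of 39 was called with array weights and 1 without the trend (Drd2 in both; 1.6% and 1.34%), and 0 to 3 with 1 library left out, the 3 arising without wild-type library 1 (Gsx1, Nkx6-2 and Lhx8). The cause was not tested. The fold change of Kif20a kept its direction and its call, from -2.66 to -2.44 and from -0.74 to -0.67, with adjusted p up to 0.185 and 0.193 when a library was left out.

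Calls over all genes, 93 lower and 289 higher in the germline table, became 180 and 372 without the filter, 484 and 560 with array weights, 67 and 110 with the Y-linked covariate, 642 and 587 without knockout library 2, 403 and 617 without knockout library 3, 42 and 115 without wild-type library 1, 46 and 133 without wild-type library 2, and 55 and 146 without knockout library 1. The inducible calls of 69 lower and 113 higher became 145 and 212 without the filter, 72 and 250 without wild-type library 1 and 44 and 82 without wild-type library 2.

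Whether replicate numbers pair the libraries could not be settled. Deviations from the group means correlated at -0.12, 0.31 and 0.25 for same-numbered germline libraries and at -0.35 and -0.05 for inducible libraries. Not every library correlated best with its own number. Deviations within a group sum to 0, which gives the 2 inducible wild-type libraries opposite signs, so these values cannot exclude pairing by litter. With a replicate block the median of the 9 genes was 0.01 (germline) and -0.11 (inducible), with 0 calls in both. That of the other ventral genes was 0.03 and -0.02, with 0 calls. The value for Kif20a was -2.54 (adjusted p = 0.0334) and -0.67 (adjusted p = 0.300). The block uses 2 of the 3 inducible knockout libraries.

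The smallest permutation p in either design is 0.1, and 2 inducible wild-type libraries leave the size of any change in Nkx2-1 and Lhx6 undetermined.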
